A study of Mus musculus with 9 samples.

Results

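Apolipoproteins are the protein parts of lipoproteins, the particles that carry triglyceride and cholesterol in blood, and the liver makes most of them. 10 genes were followed through the liver transcriptomes: Apoa1, Apoa2, Apoa4, Apoa5, Apob, Apoc3, Apoe and Apom, which encode apolipoproteins, Mttp, which encodes the microsomal triglyceride transfer protein that loads lipid onto apolipoprotein B, and Abca1, which encodes the membrane transporter that passes cellular cholesterol and phospholipid to apolipoprotein A-I. They were chosen by gene symbol, with earlier results of these data known, and make up 10 of the 20325 genes listed for each sample. All 10 passed the filter on low counts, which left 12037 genes for testing.

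Whole livers of male C57BL/6J mice were profiled by sequencing of polyadenylated RNA, with 3 livers in each of 3 groups (9 in all), and no mouse carried an engineered allele by the labels. ConvD mice were germ-free until 15 weeks of age, when a single gavage gave them cecal contents of conventionally raised donors, and they were then kept for 4 weeks. GF+SCFA mice remained germ-free and had butyrate (40 mM), propionate (25.9 mM) and acetate (67.5 mM) in their drinking water, short-chain fatty acids that gut bacteria make by fermentation. GF mice remained germ-free and drank unsupplemented water. Every group ate chow. Age is given as 14 weeks in the design text and as 19 weeks at dissection in the growth protocol. Mice were caged by colonisation status, so cage and group cannot be told apart. Samples of a group are called biological in the design text, but no label names the animal of each, and the p-values cover the spread among the livers sampled.

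In the liver, Apob gives the structural protein of very-low-density lipoprotein (VLDL), and Mttp lipidates it in the endoplasmic reticulum. Apoa1 and Apoa2 encode the main proteins of high-density lipoprotein (HDL), which forms when Abca1 lipidates apolipoprotein A-I. Apoe is a ligand for the receptors that clear particles, Apoc3 slows triglyceride breakdown and clearance, Apoa5 promotes lipolysis, Apoa4 encodes an exchangeable apolipoprotein made in intestine and liver, and Apom encodes the HDL carrier of sphingosine-1-phosphate. In the mouse genome order of the assembly GRCm38.p6, Apoa1, Apoc3, Apoa4 and Apoa5 lie next to each other on chromosome 9. Apoe follows Apoc2, Apoc4 and Apoc1 on chromosome 7. The other genes lie apart, Apoa2 on chromosome 1, Mttp on 3, Abca1 on 4, Apob on 12 and Apom on 17.

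The 250 bases before the start site are shown for 3 genes, from RefSeq on GRCm38.p6, each 5′ to 3′ on the gene's own strand. Abca1 (chr4:53159896-53160145, minus strand) is shown because it was the member that passed the test between ConvD and GF livers, Apoa4 (chr9:46240594-46240843, plus strand) because its fold change was the largest, and Apoa1 (chr9:46228380-46228629, plus strand) because it is a cluster neighbour of Apoa4 with a far higher level. Capitals mark 2 of the motifs that were searched on both strands, the TATA box (TATAAA) and the E-box (CANNTG). The third motif, the nuclear receptor element AGGTCA, had no match in these 3 windows.
Abca1: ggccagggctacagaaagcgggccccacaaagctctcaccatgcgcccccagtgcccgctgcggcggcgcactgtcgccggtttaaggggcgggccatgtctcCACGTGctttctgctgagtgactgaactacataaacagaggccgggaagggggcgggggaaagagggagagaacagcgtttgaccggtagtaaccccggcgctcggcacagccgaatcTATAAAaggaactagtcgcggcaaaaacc
Apoa4: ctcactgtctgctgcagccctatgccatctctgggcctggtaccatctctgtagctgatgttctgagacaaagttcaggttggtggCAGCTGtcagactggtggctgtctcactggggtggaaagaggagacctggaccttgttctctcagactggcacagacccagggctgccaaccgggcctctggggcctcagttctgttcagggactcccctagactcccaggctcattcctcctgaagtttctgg
Apoa1: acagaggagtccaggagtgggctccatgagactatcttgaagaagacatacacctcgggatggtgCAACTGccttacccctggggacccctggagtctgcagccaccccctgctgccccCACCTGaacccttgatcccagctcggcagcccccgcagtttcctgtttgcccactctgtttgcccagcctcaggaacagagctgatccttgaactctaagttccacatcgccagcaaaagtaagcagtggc

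In the Abca1 window the E-box CACGTG began 147 bases before the start site and a TATA box began 29 bases before it. The Apoa4 window held the E-box CAGCTG at 164 bases, and the Apoa1 window held CAACTG at 185 bases and CACCTG at 131 bases. Neither of these cluster neighbours had a TATA box in the letters searched. Windows were found for 9 of the 10 genes, 13 windows in all. A TATA box was present in at least 1 window of 5 genes (Abca1, Apoa2, Apoa5, Apob and Apoe), an E-box in 8 and AGGTCA in Apoa2 alone. Before the start site, the TATA box began at 212 bases in Apoa2, 96 in Apoe and 60 in Apob. In the overlapping windows of Apoa5 it began at 31 and 56 bases. The Apoe TATA box reads on both strands as overlapping matches. Among all 32851 mouse windows of this length, 12.4% held the TATA box, 66.2% the E-box and 14.0% AGGTCA. These shares are per window, while the counts above are per gene over any of its windows, so the scales differ. These matches describe letters and do not show that a factor binds.

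The 10 genes spanned a wide range of levels in TPM, an abundance unit that is corrected for transcript length and depth and allows genes to be compared with each other. Apoe had the highest mean level at 17220 ± 1031 TPM (SD over the 9 livers), which placed it at rank 7 of 20325 genes. Apoa2 followed at 16915 ± 1191 TPM and rank 8, and Apoa1 at 12246 ± 1412 TPM and rank 13. The ranges of Apoe and Apoa2 overlapped, and Apoe was the higher of the pair in 7 of 9 livers, so their order is not settled. Apoa2 exceeded Apoa1 in all 9 livers without overlap.

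Apoc3 came next with 3789 ± 377 TPM. Apob averaged 733 ± 118 TPM and Apoa5 668 ± 107 TPM. These levels overlapped, and Apob was the higher of the pair in 4 of 9 livers. Apom averaged 432 ± 35.4 TPM and Mttp 132 ± 13.5 TPM, and each was separated without overlap from its neighbours in the order.

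At the low end, Apoa4 averaged 41.2 ± 15.0 TPM and Abca1 31.6 ± 4.54 TPM, at ranks 1894 and 2326. Their ranges overlapped, and Apoa4 was the higher of the pair in 6 of 9 livers. The mean level of Apoe was 545 times that of Abca1. The 4 neighbours on chromosome 9 were thus spread over the whole order, Apoa1 near the top, Apoc3 and Apoa5 in the middle and Apoa4 near the bottom.

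**Figure D1:**
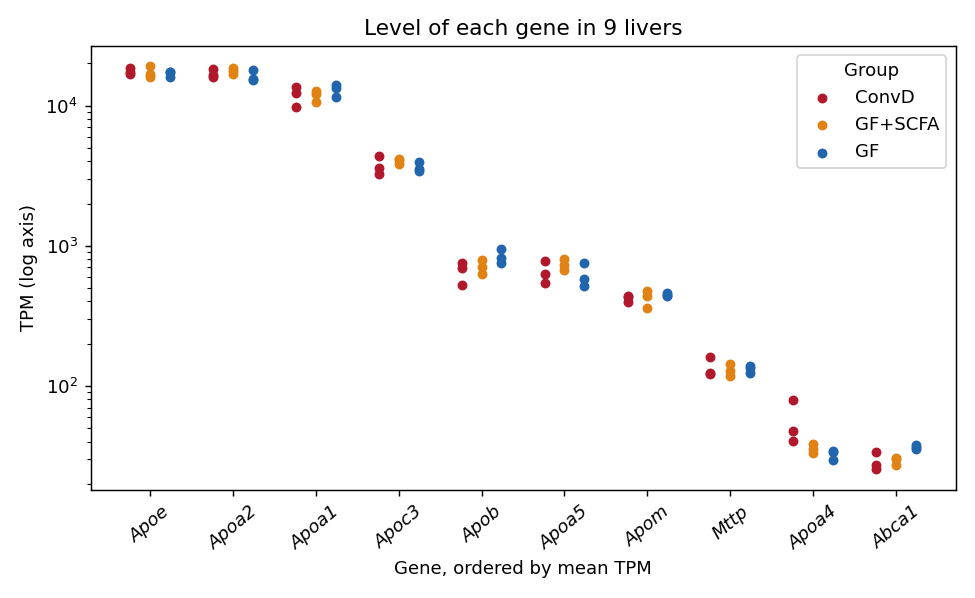
Level of each gene in each of the 9 livers, in TPM on a log axis, with ConvD, GF+SCFA and GF livers as separate point sets and genes ordered by mean TPM. Apoe, Apoa2 and Apoa1 lie at 9824 TPM or more in every liver, and Apoa4 and Abca1 lie between 25.4 and 78.8 TPM.

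Together the 10 genes held 5.21% ± 0.444 of all TPM in ConvD livers, 5.27% ± 0.143 in GF+SCFA livers and 5.19% ± 0.335 in GF livers (SD, n = 3 each). The groups' shares differed by less than their SD. Depth was 18193071 to 21627696 expected counts per liver, and the lowest count of any of the 10 genes was 580, for Apoa4 in a GF liver. On the principal components of the 500 most variable genes, the ConvD livers stood apart from all germ-free livers on the first component. On the second, GF replicates 1 and 2 lay at 10.2 and 7.16. GF replicate 3 lay at -2.68, within the GF+SCFA range of -5.08 to -2.33.

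Whole liver was sequenced, so fewer cells of a type and less RNA per cell cannot be told apart in any result below. Of all genes tested, 12.8% were called between ConvD and GF livers and 18.4% between ConvD and GF+SCFA livers, by the test described below. Of 12 hepatocyte markers, 1 was higher and 3 were lower in ConvD than in GF livers, and 1 was higher and 5 were lower in ConvD than in GF+SCFA livers. Their summed level was 93686 to 120147 TPM in ConvD livers, 92307 to 103506 TPM in GF+SCFA livers and 95572 to 117533 TPM in GF livers. Of 14 macrophage markers, 8 were higher and 0 lower in ConvD than in GF livers, and 3 were higher and 0 lower in ConvD than in GF+SCFA livers, with summed levels of 512 to 702 TPM in ConvD livers, 363 to 443 TPM in GF+SCFA livers and 319 to 443 TPM in GF livers. Of 11 endothelial, stellate and biliary markers, Lyve1 was lower and none was higher in ConvD than in GF livers, and Dcn and Col1a1 were higher and none was lower in ConvD than in GF+SCFA livers, with summed levels of 189 to 206 TPM in ConvD livers, 143 to 163 TPM in GF+SCFA livers and 156 to 214 TPM in GF livers. Of 10 enterocyte markers, Alpi, Sis and Cdx2 were at 0 in all 9 livers. The 7 that failed the filter reached at most 0.35 TPM, and the summed level of the list, mostly Fabp2, was 201 to 318 TPM in ConvD livers, 264 to 302 TPM in GF+SCFA livers and 257 to 280 TPM in GF livers.

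Colonisation was compared first, ConvD against GF. Differences are log2 fold changes of CPM (counts relative to the library total, not corrected for length and scaled by trimmed mean of M values) from edgeR's quasi-likelihood test, with p-values adjusted over all genes tested and a gene called changed at an adjusted p under 0.05. Abca1 fell, and none of the other 9 genes passed the test. In this comparison 12.8% of all genes tested were called, 6.9% of them lower and 5.93% higher in ConvD as shares of all genes tested, so 1 call among 10 genes is near the background. By another scaling the split between directions moves: 46.2% of the called genes were higher in ConvD livers with this scaling, 66.1% with upper-quartile factors and 73.1% with library totals. Without adjustment, 3 of the 10 genes had a p under 0.05, against 28.6% of all genes.

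Abca1, the cholesterol efflux transporter, stood at 207, 178 and 171 CPM in the ConvD livers, 211, 204 and 188 CPM in the GF+SCFA livers and 247, 258 and 239 CPM in the GF livers. Every ConvD liver and every GF+SCFA liver was below every GF liver, and the ConvD and GF+SCFA livers overlapped. Between ConvD and GF livers the log2 fold change was -0.42 (SE 0.08, 95% interval -0.59 to -0.25, adjusted p = 0.00503), a level 0.747 times that of GF livers. The call was kept without any 1 liver, with adjusted p of 0.00339 to 0.0280, and was lost on log2(TPM + 1), with an adjusted p of 0.0530, and on log2(TPM + 0.1), with 0.0526. In TPM the values were 33.8, 27.3 and 25.4 in ConvD livers, 30.2, 30.5 and 27.2 in GF+SCFA livers and 35.7, 36.3 and 38.0 in GF livers, with all GF livers above the rest and the other groups overlapping. The macrophage marker sums given above were higher in ConvD livers while Abca1 was lower, and their part in the Abca1 value was not tested.

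Apob, the structural protein of VLDL, stood at 6213, 4655 and 6388 CPM in the ConvD livers, 6624, 7196 and 5908 CPM in the GF+SCFA livers and 7648, 9088 and 6383 CPM in the GF livers. The ConvD and GF values met at their edges, where ConvD replicate 3 lay just above GF replicate 3. The log2 fold change of ConvD against GF was -0.42 (SE 0.15, 95% interval -0.74 to -0.11), and it did not pass adjustment (unadjusted p = 0.0124, adjusted p = 0.0732). The estimate was as large as that of Abca1, and the within-group coefficient of variation was 15.1% for Apob and 7.17% for Abca1. Leaving out 1 liver at a time, Apob was called in 1 of 9 fits, without GF replicate 3 (log2 fold change -0.54, adjusted p = 0.0277), and the estimates ranged from -0.54 to -0.29 with adjusted p up to 0.241. DESeq2 called it at an adjusted p of 0.0267.

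Mttp, the partner of Apob in VLDL assembly, stood at 375, 306 and 315 CPM in the ConvD livers, 341, 367 and 312 CPM in the GF+SCFA livers and 325, 362 and 331 CPM in the GF livers. All 3 groups overlapped. The log2 fold change of ConvD against GF was -0.03 (95% interval -0.23 to 0.16, adjusted p = 0.851).

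Apoa4 had the largest fold change of the 10 genes. It stood at 74.9, 47.8 and 42.5 CPM in the ConvD livers, 35.8, 40.0 and 38.3 CPM in the GF+SCFA livers and 31.5, 37.3 and 33.6 CPM in the GF livers. All ConvD livers were above all livers of the other groups, and ConvD replicate 1 stood far above the rest. The log2 fold change of ConvD against GF was 0.69 (SE 0.20, 95% interval 0.24 to 1.14), a ratio of 1.61 that did not pass adjustment (unadjusted p = 0.00769, adjusted p = 0.0558). Without ConvD replicate 1 the estimate was smaller, 0.40, and the gene was called (adjusted p = 0.0230), and without ConvD replicate 3 it was 0.85 and called (adjusted p = 0.0146). The other 7 fits that left out 1 liver did not call it, with adjusted p up to 0.150. Over all 18 alternatives 4 called it, among them DESeq2 (adjusted p = 0.00165), and with no filter on low counts the adjusted p was 0.1003. Of the enterocyte markers, Alpi, Sis and Cdx2 were at 0 in these livers, and Fabp2, which liver also expresses, stood at 264, 191 and 153 TPM in the ConvD livers, 247, 235 and 218 TPM in the GF+SCFA livers and 198, 206 and 224 TPM in the GF livers. In TPM Fabp2 was highest in ConvD replicate 1, the liver in which Apoa4 was highest. In CPM GF+SCFA replicate 1 was higher, at 95.2 against 89.0 in ConvD replicate 1. The Fabp2 log2 fold change of ConvD against GF was -0.13 (adjusted p = 0.572). Other markers of this list did not peak in that liver. In CPM Lgals4 was lowest of all livers in ConvD replicate 1 (3.79), and Anpep was highest in GF replicate 2 (129). The part of other cell types in the Apoa4 value was not tested.

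The HDL proteins did not pass the test. Apoa1 stood at 7361, 7101 and 5873 CPM in the ConvD livers, 7824, 6259 and 7429 CPM in the GF+SCFA livers and 7080, 8873 and 7504 CPM in the GF livers. The groups overlapped, and the log2 fold change of ConvD against GF was -0.21 (95% interval -0.47 to 0.05, adjusted p = 0.286). Apoa2 stood at 4805, 4496 and 4816 CPM in the ConvD livers, 5017, 5286 and 5228 CPM in the GF+SCFA livers and 4509, 4748 and 4868 CPM in the GF livers. The ConvD and GF livers overlapped, and the ConvD against GF interval was -0.18 to 0.18. In CPM every GF+SCFA liver was above every liver of the other groups. In TPM the Apoa2 groups overlapped, at 16708 to 18403 in GF+SCFA livers, 15166 to 17967 in GF livers and 16064 to 18249 in ConvD livers. Apom stood at 166, 174 and 166 CPM in the ConvD livers, 191, 149 and 205 CPM in the GF+SCFA livers and 186, 197 and 181 CPM in the GF livers. In CPM its ConvD livers all lay below its GF livers, but the log2 fold change of -0.16 did not pass (95% interval -0.37 to 0.05, adjusted p = 0.308). In TPM the Apom values overlapped, at 396 to 436 in ConvD livers and 434 to 463 in GF livers.

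Genes of triglyceride lipolysis and clearance also gave no call. Apoa5 stood at 1044, 893 and 806 CPM in the ConvD livers, 1027, 1185 and 1113 CPM in the GF+SCFA livers and 787, 902 and 1046 CPM in the GF livers. ConvD and GF livers covered nearly the same range (95% interval of the log2 fold change -0.24 to 0.25). Apoc3 stood at 1151, 1013 and 942 CPM in the ConvD livers, 1155, 1179 and 1249 CPM in the GF+SCFA livers and 1017, 1086 and 1077 CPM in the GF livers. The GF livers lay inside the ConvD range (95% interval -0.22 to 0.15). Apoe stood at 12995, 12864 and 12984 CPM in the ConvD livers, 13408, 14639 and 12686 CPM in the GF+SCFA livers and 12765, 14047 and 12449 CPM in the GF livers. Its 3 ConvD values lay close together inside the GF range, with an interval of -0.22 to 0.19. Macrophages also express Apoe, and the macrophage marker sums given above were higher in ConvD livers, and their part in the Apoe value was not tested.

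Over the 10 genes, the log2 fold changes of ConvD against GF had a median of -0.03 and a median size of 0.096, beside a median of 0.0026 and a median size of 0.171 over all genes tested. Among the 2612 genes at least as abundant as the lowest of the 10, the median size was 0.134 and 19.9% were called. Of the 10 estimates, 8 were negative with this scaling, but 4 were negative with upper-quartile factors, library totals or TPM, so the count of directions depends on the scaling. In CPM the groups did not overlap for 3 genes, Abca1, Apoa4 and Apom, beside 31.6% of all genes tested. In TPM Abca1 and Apoa4 stayed apart and Apom overlapped.

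**Figure D2:**
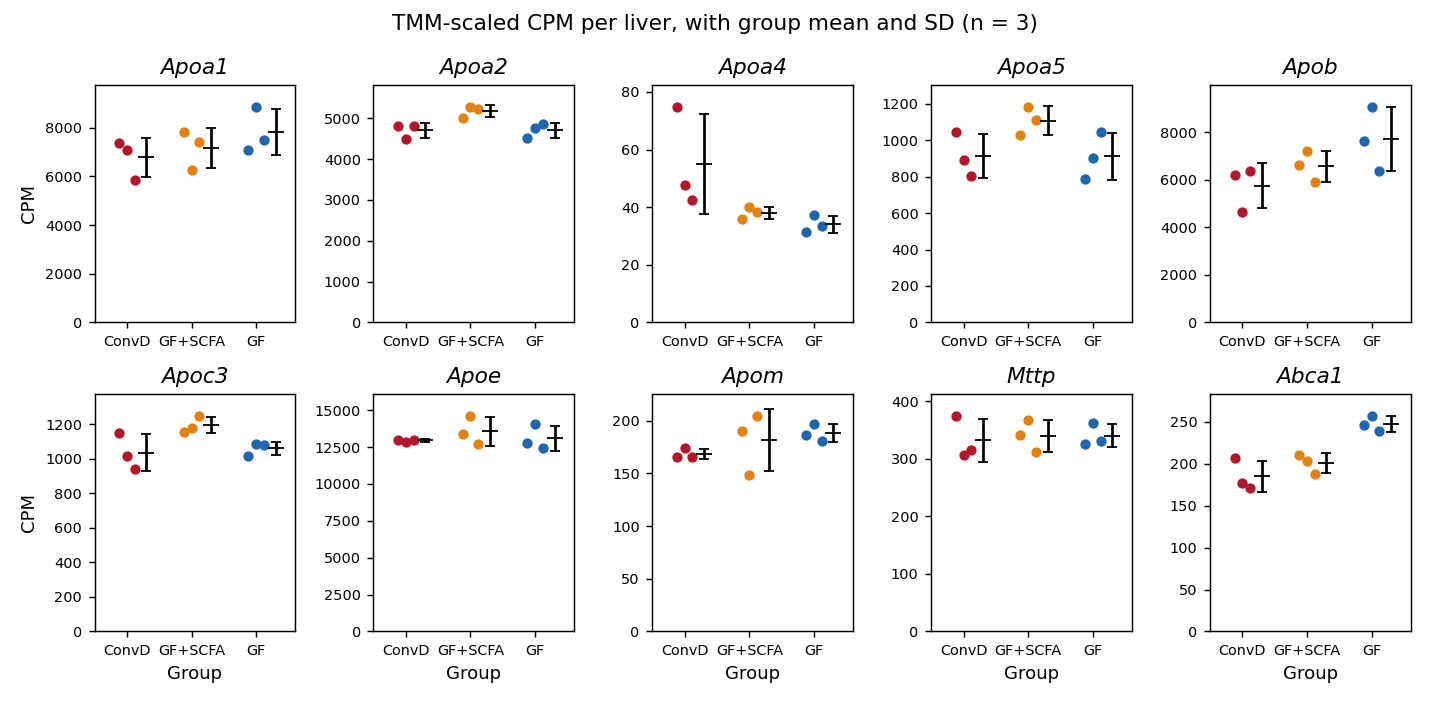
Each panel plots 1 gene, with CPM per liver as points and the group mean ± SD (n = 3) as bars for ConvD, GF+SCFA and GF, on axes that start at 0. The ConvD and GF+SCFA livers lie below the GF livers for Abca1, and the ConvD livers lie above the rest for Apoa4.

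The short-chain fatty acid supplement was compared next, GF+SCFA against GF. This comparison shares its GF livers with the one above. None of the 10 genes passed edgeR's quasi-likelihood test, 2 had an unadjusted p under 0.05, and DESeq2 also called 0. Of all genes tested 0.0415% were called, 0.00831% higher and 0.0332% lower, so calls were rare in general, and 12.3% had an unadjusted p under 0.05. The count of calls over all genes depended on GF replicate 3, with 5 calls in the main fit and 173 without that liver. Among the 10 genes it stayed at 0. In CPM the groups did not overlap for 3 genes, Apoa2, Apoc3 and Abca1, beside 17.9% of all genes. In TPM Abca1 stayed apart, and Apoa2 and Apoc3 overlapped.

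The smallest p-value belonged to Abca1, whose log2 fold change of GF+SCFA against GF was -0.30 (SE 0.08, 95% interval -0.48 to -0.13, unadjusted p = 0.00213, adjusted p = 0.196), beside the ConvD against GF value of -0.42. Between ConvD and GF+SCFA livers the Abca1 difference was -0.12 (95% interval -0.29 to 0.06, adjusted p = 0.334), so these groups were not distinguished. Apoa5 had a log2 fold change of 0.28 (95% interval 0.04 to 0.53, unadjusted p = 0.0277, adjusted p = 0.356) for GF+SCFA against GF. The 1185 and 1113 CPM of 2 GF+SCFA livers exceeded every GF liver, and the remaining one lay below the highest GF liver. Apoc3 and Apoa2 lay higher in each GF+SCFA liver than in each GF liver in CPM, but not in TPM. Their log2 fold changes were 0.17 (95% interval -0.01 to 0.35, adjusted p = 0.437) and 0.14 (95% interval -0.04 to 0.31, adjusted p = 0.535). For the other members the size of the estimate was at most 0.23, with adjusted p from 0.560 to 0.998.

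**Figure D3:**
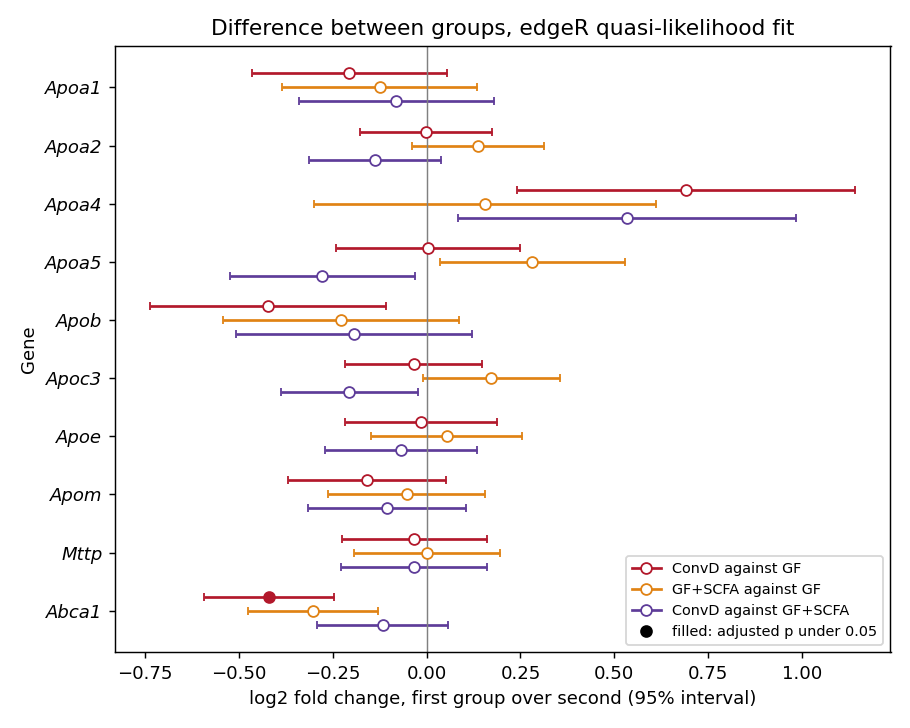
log2 fold change with its 95% interval for each of the 10 genes (rows) in the comparisons ConvD against GF, GF+SCFA against GF and ConvD against GF+SCFA, where filled points passed an adjusted p under 0.05. The single filled point is Abca1 in ConvD against GF at -0.42, and the interval of Apoa4 reaches from 0.24 to 1.14 in the same comparison.

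The third comparison, ConvD against GF+SCFA, shares the ConvD livers with the first and the GF+SCFA livers with the second. It gave 0 calls among the 10 genes by edgeR's quasi-likelihood test, where 18.4% of all genes tested were called, 9.44% higher and 8.97% lower in ConvD livers. An unadjusted p under 0.05 was seen for 3 of them, beside 33.1% of all genes, and DESeq2 called 1. In CPM the groups did not overlap for 3 genes, Apoa2, Apoa4 and Apoc3, beside 38% of all genes tested. In TPM Apoa4 stayed apart, and Apoa2 and Apoc3 overlapped. Apoa4 had a log2 fold change of 0.53 (95% interval 0.08 to 0.98, unadjusted p = 0.0254, adjusted p = 0.0977). Apoc3 had a log2 fold change of -0.21 (95% interval -0.39 to -0.02, adjusted p = 0.108) and Apoa5 one of -0.28 (95% interval -0.52 to -0.03, adjusted p = 0.108). All 3 estimates had intervals that leave out 0, and none passed adjustment. For the other members the size of the estimate was at most 0.19, with adjusted p from 0.263 to 0.829.

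The genes also differed in how much the livers of a group varied. The within-group coefficient of variation of CPM was smallest for Apoa2 (3.53%) and Apoe (5.63%), followed by Apoc3 (6.69%), Abca1 (7.17%), Mttp (8.70%) and Apom (9.81%). It was 11.7% for Apoa1, 11.9% for Apoa5, 15.1% for Apob and 19.2% for Apoa4, beside a median of 6.61% over the 2612 genes at least as abundant as the lowest of the 10. In CPM, single livers were the highest of their group for several genes at once. ConvD replicate 1 was the highest ConvD liver for 7 of the 10 genes, GF+SCFA replicate 2 the highest of its group for 6, and GF replicate 2 the highest GF liver for 8. Which liver was highest depends on the scale in every group. Apoa2, Apob and Apom were highest in another ConvD liver by CPM but in ConvD replicate 1 by TPM. Abca1 was highest in GF+SCFA replicate 1 by CPM but in GF+SCFA replicate 2 by TPM. Apoa4, Apoc3, Apom, Mttp and Abca1 were highest in GF replicate 2 by CPM but in GF replicate 3 by TPM. Among the 45 pairs of the 10 genes, Mttp and Abca1 lay on the same side of their group means in all 9 livers and Apoa1 and Apom in 8, and 15 pairs did so in 7. The remaining pairs did so in fewer livers, 4 pairs in 6 livers, 14 in 5, 4 in 4 and 6 in 3. These pairs share the same libraries and scaling, so the counts are a description.

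The genes whose pattern over the 9 livers was most like that of Abca1 were Fat1, Dip2c and Cox10. Likeness is the root mean square difference in log2(CPM + 1), each gene centred on its own mean, over 11153 genes with a mean of at least 1 CPM. The difference was 0.0716 for Fat1, 0.0799 for Dip2c and 0.0842 for Cox10, beside a median of 0.241 over all genes compared. A gene with the same level in all 9 livers would differ from Abca1 by 0.196. These genes were picked for the smallest difference, so their likeness to Abca1, also in group means, follows from the choice. Fat1 averaged 32.1 CPM in ConvD livers, 33.6 CPM in GF+SCFA livers and 40.7 CPM in GF livers.

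The wider lipoprotein pathway was read from 5 lists with 83 genes, of which 81 were tested. Between ConvD and GF livers 13 of the 81 genes changed, 5 higher and 8 lower, beside 12.8% of all genes tested (5.93% higher and 6.9% lower). Between GF+SCFA and GF livers 0 of 81 changed by edgeR, beside 0.0415% of all genes. Between ConvD and GF+SCFA livers 23 changed, 9 higher and 14 lower, beside 18.4% of all genes (9.44% higher and 8.97% lower). The split of all calls between directions moved with the scaling here too, from 51.3% higher in ConvD livers to 72.4% with library totals. Nothing particular to the lists is drawn from these counts. The median log2 fold changes of the lists for ConvD against GF were 0.11 for the other apolipoproteins, -0.09 for assembly and secretion, -0.01 for remodelling and efflux, -0.09 for uptake receptors and -0.09 for transcription regulators, beside 0.0026 over all genes tested.

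None of the 9 other apolipoproteins tested changed in any comparison by edgeR's quasi-likelihood test. Of all genes tested, 12.8% were called for ConvD against GF, 0.0415% for GF+SCFA against GF and 18.4% for ConvD against GF+SCFA. Among the 9, Apoc1, Apoc2 and Apoc4 are the neighbours of Apoe. Apoc2, the activator of lipoprotein lipase, averaged 126 ± 16.3 CPM in ConvD livers, 110 ± 6.80 CPM in GF+SCFA livers and 106 ± 4.28 CPM in GF livers (SD, n = 3 each), and its log2 fold change of 0.25 for ConvD against GF had an adjusted p of 0.0805. Apoc1 differed by 0.03 (adjusted p = 0.867) and Apoc4 by -0.03 (adjusted p = 0.809) between ConvD and GF livers.

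Of 21 genes of particle assembly and secretion, 2 rose and 4 fell in ConvD against GF livers, beside 5.93% and 6.9% of all genes tested. Dgat2, which makes triglyceride for VLDL, averaged 387 ± 20.5 CPM in ConvD livers, 524 ± 11.5 CPM in GF+SCFA livers and 547 ± 25.0 CPM in GF livers (log2 fold change of ConvD against GF -0.50, SE 0.07, adjusted p = 0.000854). A1cf, a cofactor of Apob mRNA editing, averaged 128 ± 10.9 CPM in ConvD livers, 180 ± 7.31 CPM in GF+SCFA livers and 173 ± 16.4 CPM in GF livers (log2 fold change -0.43, adjusted p = 0.00504). Apobec1, the editing enzyme itself, differed by -0.0048 (adjusted p = 0.996). Sec24a, a cargo adaptor of the COPII coat, fell by 0.40 (adjusted p = 0.0101), and Stx5a, a SNARE of the Golgi, fell by 0.27 (adjusted p = 0.0414). Pla2g12b, which acts in VLDL lipid loading, rose by 0.34 (adjusted p = 0.0124), and Soat2, which makes cholesteryl ester, rose by 0.39 (adjusted p = 0.0361).

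Against GF+SCFA livers the ConvD livers were again lower for Dgat2 (-0.44, adjusted p = 0.00115), A1cf (-0.49, adjusted p = 0.00148), Sec24a (-0.49, adjusted p = 0.00201) and Stx5a (-0.44, adjusted p = 0.00224). They were also lower for the vesicle transport genes Sar1a (-0.30, adjusted p = 0.00794) and Surf4 (-0.31, adjusted p = 0.00884). Soat2 (0.56, adjusted p = 0.00482) and Pla2g12b (0.34, adjusted p = 0.00799) were higher, as was the sorting receptor Sort1 (0.85, adjusted p = 0.00402). Sort1 averaged 37.4 ± 1.72 CPM in ConvD livers, 20.7 ± 2.15 CPM in GF+SCFA livers and 31.7 ± 7.70 CPM in GF livers.

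Of 17 genes of plasma remodelling and efflux, 1 rose and 1 fell in ConvD against GF livers, where 12.8% of all genes tested were called. Lcat, which esterifies cholesterol on HDL with apolipoprotein A-I as its activator, averaged 229 ± 7.12 CPM in ConvD livers, 307 ± 9.17 CPM in GF+SCFA livers and 299 ± 14.9 CPM in GF livers (log2 fold change of ConvD against GF -0.39, SE 0.07, adjusted p = 0.00294). Lpl, lipoprotein lipase, averaged 37.6 ± 9.38 CPM in ConvD livers, 17.3 ± 2.90 CPM in GF+SCFA livers and 23.9 ± 2.93 CPM in GF livers (log2 fold change 0.65, adjusted p = 0.0488). Lpl is also expressed by macrophages, whose marker sums were higher in ConvD livers, and their part in the Lpl value was not tested. The sterol transporters Abcg1, Abcg5 and Abcg8 had log2 fold changes of 0.25, -0.09 and -0.05 for ConvD against GF, with adjusted p of 0.225, 0.532 and 0.775. These genes, like Abca1, are known targets of the liver X receptors, but they are not a full list of such targets. Pltp, from the same list of 17 genes, had a log2 fold change of 1.30 for ConvD against GF (adjusted p = 0.107). It stood at 94.5, 61.4 and 28.1 CPM in ConvD livers and 20.5, 25.5 and 28.6 CPM in GF livers. The part of the receptors in these values was not tested.

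For ConvD against GF+SCFA, Lcat was lower (-0.42, adjusted p = 0.000981), as were Saa4, an HDL-associated serum amyloid A (-0.87, adjusted p = 0.00266), and Angptl4, an inhibitor of lipoprotein lipase (-0.59, adjusted p = 0.0174). Lpl was higher (1.12, adjusted p = 0.00437), as was Abcg1 (0.55, adjusted p = 0.0118). The gene listed as Gm6484, an older symbol of Angptl8, had 16.7, 72.8 and 10.04 CPM in ConvD livers and 4.40, 5.05 and 11.2 CPM in GF livers. A single ConvD liver was far above the others, and the log2 fold change of 2.26 did not pass (adjusted p = 0.174). It was named after its values were seen.

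Of 13 particle uptake receptors and their partners, 1 fell and 0 rose in ConvD against GF livers, where 12.8% of all genes tested were called. Scarb1, the HDL receptor SR-BI, averaged 120 ± 2.40 CPM in ConvD livers, 152 ± 11.2 CPM in GF+SCFA livers and 160 ± 6.85 CPM in GF livers (log2 fold change of ConvD against GF -0.41, SE 0.07, adjusted p = 0.00246, and of ConvD against GF+SCFA -0.34, adjusted p = 0.00514). Lrp1, a receptor that takes up remnant particles, differed by -0.21 (adjusted p = 0.323) between ConvD and GF livers.

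**Figure D4:**
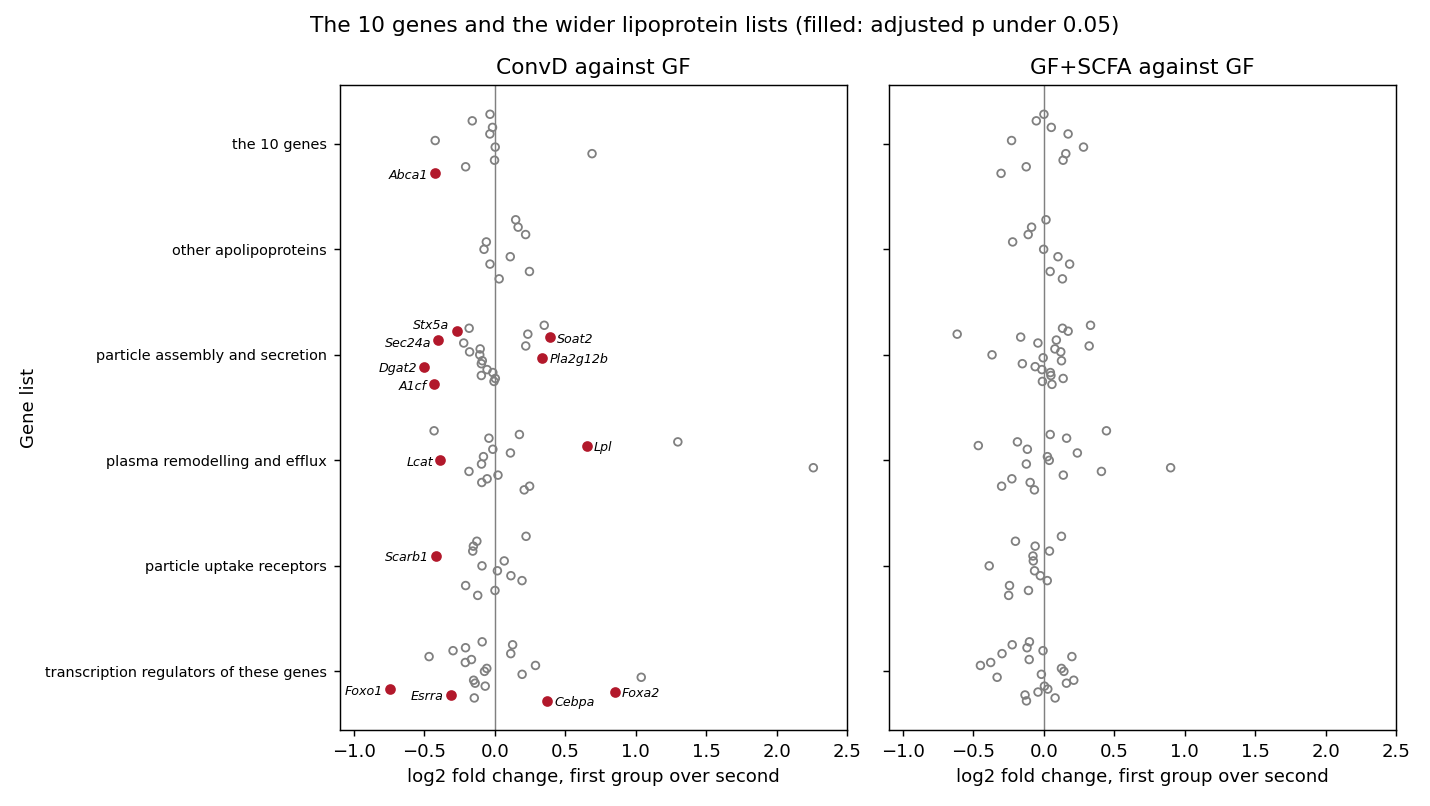
log2 fold changes of the 10 genes and of the genes in 5 wider lipoprotein lists, ConvD against GF in the left panel and GF+SCFA against GF in the right panel, where filled and named points passed an adjusted p under 0.05. In the left panel Abca1 and 13 genes of the wider lists are filled, from Foxo1 at -0.74 to Foxa2 at 0.85, and the right panel has no filled point.

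Of 21 transcription regulators known to act on these genes, 2 rose and 2 fell in ConvD against GF livers, beside the same 12.8% of all genes. Foxo1, an insulin-inhibited activator of Mttp and Apoc3, averaged 28 ± 1.60 CPM in ConvD livers, 47.7 ± 1.72 CPM in GF+SCFA livers and 46.8 ± 5.08 CPM in GF livers (log2 fold change of ConvD against GF -0.74, SE 0.09, adjusted p = 0.00018). Mttp and Apoc3 themselves differed by -0.03 each, and the part of Foxo1 in their levels was not tested. Foxa2, a liver forkhead factor, averaged 16.6 ± 2.07 CPM in ConvD livers, 8.91 ± 2.01 CPM in GF+SCFA livers and 9.17 ± 2.43 CPM in GF livers (log2 fold change 0.85, adjusted p = 0.0211). Cebpa rose by 0.37 (adjusted p = 0.0168) and Esrra fell by 0.31 (adjusted p = 0.0334). The liver X receptor genes Nr1h3 and Nr1h2 had log2 fold changes of -0.07 (adjusted p = 0.477) and 0.19 (adjusted p = 0.177) between ConvD and GF livers.

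Against GF+SCFA livers, the ConvD livers were lower for Foxo1 (-0.77, adjusted p = 0.000101), Hnf4a (-0.30, adjusted p = 0.0340), Creb3l3 (-0.22, adjusted p = 0.0452) and Nr1h3 (-0.21, adjusted p = 0.0274). They were higher for Foxa2 (0.89, adjusted p = 0.0129), Cebpa (0.49, adjusted p = 0.00229), Nr2f2 (0.74, adjusted p = 0.00127) and Nr1d1 (1.37, adjusted p = 0.0216). Nr1d1, a clock repressor, averaged 54.5 ± 6.66 CPM in ConvD livers, 21.0 ± 6.81 CPM in GF+SCFA livers and 26.5 ± 7.51 CPM in GF livers, and its ConvD against GF value of 1.04 had an adjusted p of 0.0631. The time of day of dissection is not given in the sources used here.

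Leaving out 1 liver at a time, 6 of the 13 calls of the wider lists between ConvD and GF livers were kept in every fit, and 17 of the 23 calls between ConvD and GF+SCFA livers. Dgat2, Lcat, Scarb1 and Foxo1 were called against GF under all 18 alternatives tried, and Stx5a under 7, Esrra under 8, Lpl under 9 and Soat2 under 10. Against GF+SCFA livers, Creb3l3 was called under 7 of 18 alternatives and Hnf4a and Nr1h3 under 9 each, with adjusted p up to 0.293, 0.213 and 0.380. Sar1a, Surf4, Abcg1, Angptl4, Scarb1 and Nr1d1 were called under 15 to 17, and the other 14 genes under all 18.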

How the data were processed

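Polyadenylated RNA of 9 mouse livers was sequenced, 3 each of ConvD, GF+SCFA and GF. Extraction with a Qiagen kit and library construction with Illumina's TruSeq Stranded mRNA chemistry are given per the labels' protocols. Bowtie2, RSEM 1.2.23 and the build mm9 are listed per the submitters' processing notes. The strand setting of RSEM is not given in the sources used here. The authors deposited expected counts, which divide reads that match several genes and carry no normalisation. TPM, named per the file headers, is the deposited value that the authors scaled for length and depth.

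Expected counts were rounded and fitted with edgeR 4.0.16 in R 4.3.3, after filterByExpr with a minimum count of 10 and TMM scaling, in a model of 3 groups with robust quasi-likelihood dispersions and 6 residual degrees of freedom. P-values were adjusted by Benjamini-Hochberg over 12037 genes, and an adjusted p under 0.05 is a call. CPM are TMM-scaled, SEs derive from the F statistic, and intervals are 95% intervals. Depth was 18193071 to 21627696 expected counts per liver. Livers of a group differed with a chi-square of 10.8 to 51.2 per degree of freedom, so none were copies. Alternatives used DESeq2 1.42.0, limma 3.58.1 on TPM, other scalings, no filter, a replicate block and each liver left out. The fit was tested on simulated data.

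The 10 genes, the wider lists and the markers were chosen with earlier results of these data known. All 10 are named for ConvD against GF, and in the other comparisons members not named are covered by a range. Genes of the wider lists are named where they are called. Other list genes were named for their role, after their values were seen. Some list genes are not reported here. Promoter windows come from the RefSeq table of GRCm38.p6.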

Additional observations from a re-analysis of the deposited data

How the results depend on the processing

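Abca1 in ConvD against GF kept its direction under all 18 alternatives and its call under 16. Of the 10 genes, 3 were called in that comparison with DESeq2 (Abca1, Apoa4 and Apob), beside 1525 calls over all genes. Upper-quartile factors called 2 of the 10, beside 1601 over all genes. Limma on log2(TPM + 1) or log2(TPM + 0.1) called 0, beside 1019 and 972 over all genes. Leaving out 1 liver gave 1 to 2. In ConvD against GF+SCFA, DESeq2 called 1 of the 10 genes (Apoa4, adjusted p = 0.0174), beside 2043 calls over all genes. Leaving out 1 liver gave 0 to 1, with Apoc3 called without ConvD replicate 1 (adjusted p = 0.0488) and Apoa4 without ConvD replicate 3 (adjusted p = 0.0243). In GF+SCFA against GF the count was 0 under every alternative. The cause of these moves was not tested.

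Over all genes, ConvD against GF gave 1544 calls, 1019 with log2(TPM + 1), 972 with log2(TPM + 0.1) and 849 to 1466 without 1 liver, with 918 without GF replicate 1, 936 without ConvD replicate 1 and 849 without ConvD replicate 2. GF+SCFA against GF gave 5 calls, 82 with DESeq2, 9 with library totals, 24 with no filter, 1 with either TPM scale, and 0 to 173 without 1 liver, the highest without GF replicate 3. ConvD against GF+SCFA gave 2216 calls, and 1383 to 2393 without 1 liver, the lowest without GF+SCFA replicate 2. Of those calls 51.3% were higher in ConvD livers, and 66.8% with upper-quartile factors, 72.4% with library totals and 77.6% with log2(TPM + 1). The median gene moved by 0.08 with library totals in ConvD against GF.

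Estimates near 0 changed sign. In ConvD against GF, upper-quartile factors, library totals, log2(TPM + 1) and log2(TPM + 0.1) gave 0.0600, 0.0771, 0.0666 and 0.0666 for Apoa2, 0.0274, 0.0466, 0.0293 and 0.0293 for Apoc3, 0.0454, 0.0656, 0.0539 and 0.0539 for Apoe, and 0.0285, 0.0495, 0.0310 and 0.0311 for Mttp, and DESeq2 gave -0.0036 for Apoa5. In GF+SCFA against GF, Mttp was -0.00028 with DESeq2, -0.0011 with median-of-ratios size factors and -0.0201 and -0.0203 on the TPM scales. In ConvD against GF+SCFA, the TPM scales gave 0.0060 for Apoa1, 0.0216 for Apoe, and 0.0511 and 0.0514 for Mttp, library totals gave 0.0026 for Apoe and 0.0395 for Mttp, and upper-quartile factors gave 0.0215 for Mttp. Without 1 liver, the ConvD against GF ranges were -0.0328 to 0.0361 for Apoa2, -0.101 to 0.117 for Apoa5, -0.116 to 0.0290 for Apoc3, -0.0479 to 0.0373 for Apoe and -0.129 to 0.0271 for Mttp. The GF+SCFA against GF ranges were -0.00213 to 0.107 for Apoe, -0.150 to 0.0744 for Apom and -0.0554 to 0.0593 for Mttp, and the ConvD against GF+SCFA ranges were -0.168 to 0.0117 for Apoa1 and -0.131 to 0.0267 for Mttp.

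Replicate numbers did not pair the livers: deviations of same-numbered livers correlated at -0.0852 to 0.213 over 9 pairs, and 1 of 9 livers correlated best with its own number in both other groups. A replicate block gave 1 call among the 10 genes in ConvD against GF and 0 in the others, with 1514, 5 and 2195 calls over all genes, and an estimate of -0.0015 for Mttp in GF+SCFA against GF. Each of the 10 genes had at least 580 counts in every liver, and each group had 3 livers.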
